A study of Mus musculus with 12 samples.

Results

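The level of insulin-like growth factor binding protein 3 (Igfbp3) in the kidney medulla was followed through 6 mice and 12 arrays on cDNA clone H3154G07. Of the 15600 clones on the arrays, names could be sought for 572, and H3154G07 was the only 1 of these named as Igfbp3. Whether the remaining clones include a further Igfbp3 clone is not known. Clone H3154G07 was selected on its own values on these arrays, namely the effects of the 6 mice, their spread and the genotype difference. Those values are therefore given below as a description with their standard errors and without a test. Igfbp3 read higher in the first aquaporin-1 knockout mouse (KO1) than in its partner on each of the 4 arrays that carried it, and the other 5 mice were at similar levels. In the fit with 1 dye effect the other knockout mice, KO2 and KO3, lay among the wild type mice. The KO1 difference was 1.48 on the log2 scale (standard error 0.21) with a single dye effect for all arrays, and 1.48 without a dye effect. With dye effects that could differ between days it was 0.60, with a standard error of 0.74.

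Igfbp3 is a secreted protein that binds insulin-like growth factors I and II. In blood it carries them in a complex with the acid-labile subunit, and in tissue it holds them away from, or releases them near, the type 1 receptor. Aquaporin-1 is the water channel of the proximal tubule, the thin descending limb of the loop of Henle and the descending vasa recta, and mice that lack it cannot concentrate their urine normally. The inner medulla, where the interstitium is normally most concentrated, is therefore a tissue in which these mice differ physiologically from wild type mice.

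RNA from the kidney inner medulla of 3 wild type mice (WT1, WT2 and WT3) and 3 aquaporin-1 knockout mice (KO1, KO2 and KO3) was compared on 2-colour arrays. The methods describe adult animals and medullae as a whole. How the knockout allele was made, the strain, the exact age and the sex were not given in the sources used here. The arrays formed an interwoven loop without a reference sample, in which each mouse was on 4 arrays, 2 times in each dye. Channel 1 carried the Alexa Fluor dye of shorter wavelength and channel 2 that of longer wavelength. Of the 12 arrays, 3 paired wild type mice, 3 paired knockout mice, 3 had a knockout mouse in channel 1 against a wild type mouse, and 3 the reverse.

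The deposited values are log2 differences, channel 1 minus channel 2, on a linlog scale, which is logarithmic for bright spots and linear for dim ones. How bright the Igfbp3 spots were was not analysed here, so a fold given below holds only where the spots lay on the logarithmic part. No clone was named as aquaporin-1, so the deleted gene could not be checked against the labels, and none of the 48 marker genes of medullary, vascular, blood and immune cells had a named clone, so the tissue label was not checked either. The medians of the 12 arrays over all clones ran from -0.05 to 0.04. The array of KO1 over KO3 spread most widely of the 12, with a standard deviation over clones of 0.895 against 0.403 to 0.692 on the other 11.

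The mouse Igfbp3 gene lies on chromosome 11 from 7206086 to 7215498 in GRCm38.p6, a span of 9413 bp, and codes for a protein. Its neighbour Igfbp1, a liver-rich binding protein of the same family, ends 3539 bp away, and Adcy1, an adenylyl cyclase, lies beyond it. On the other side are Tns3, an adhesion protein, and Pkd1l1, a polycystin family channel subunit. None of these 4 genes had a named clone, so the position of Igfbp3 beside them could not be set against their levels. Which exons the clone covers was not given in the sources used here.

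On the array of KO1 over KO2 Igfbp3 read 1.99, and on the array of KO1 over KO3 it read 1.36. With KO1 in the other dye, WT2 over KO1 read -1.71 and WT3 over KO1 read -0.74. KO1 was thus above its partner on 4 of 4 arrays and in both dyes. Turned to KO1 minus partner, the mean was 1.45 ± 0.54 (SD, n = 4 arrays), at 1.68 with KO1 in channel 1 and 1.22 with KO1 in channel 2. KO1 met wild type mice only in channel 2 and knockout mice only in channel 1, so partner genotype and dye orientation of KO1 cannot be told apart.

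The 8 arrays without KO1 held smaller values. Among wild type mice, WT1 over WT2 read 0.14, WT2 over WT3 read 0.43 and WT1 over WT3 read -0.67. The last of these was the largest in size of the 8, and close to the 0.74 by which KO1 exceeded WT3. The 3 wild type arrays did not close: WT1 over WT2 and WT2 over WT3 sum to a rise of WT1 over WT3, whereas the direct array read a fall, and the gap was 1.24, or 1.15 after the dye effect. After the dye effect, 84.7% of clones had a smaller gap. The arrays between knockout mice, which include KO1, did not close either. Their gap was 0.86, or 0.77 after the dye effect, and 67.0% of clones had a smaller one.

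Across genotypes and without KO1, WT3 over KO2 read 0.02, KO2 over WT1 read 0.20, KO3 over WT2 read -0.14 and KO3 over WT1 read -0.07. KO2 over KO3 read 0.23. All 5 of these arrays lay within 0.23 of 0, that is, within the residual standard deviation of 0.45 of the fit to the clone.

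**Figure D1:**
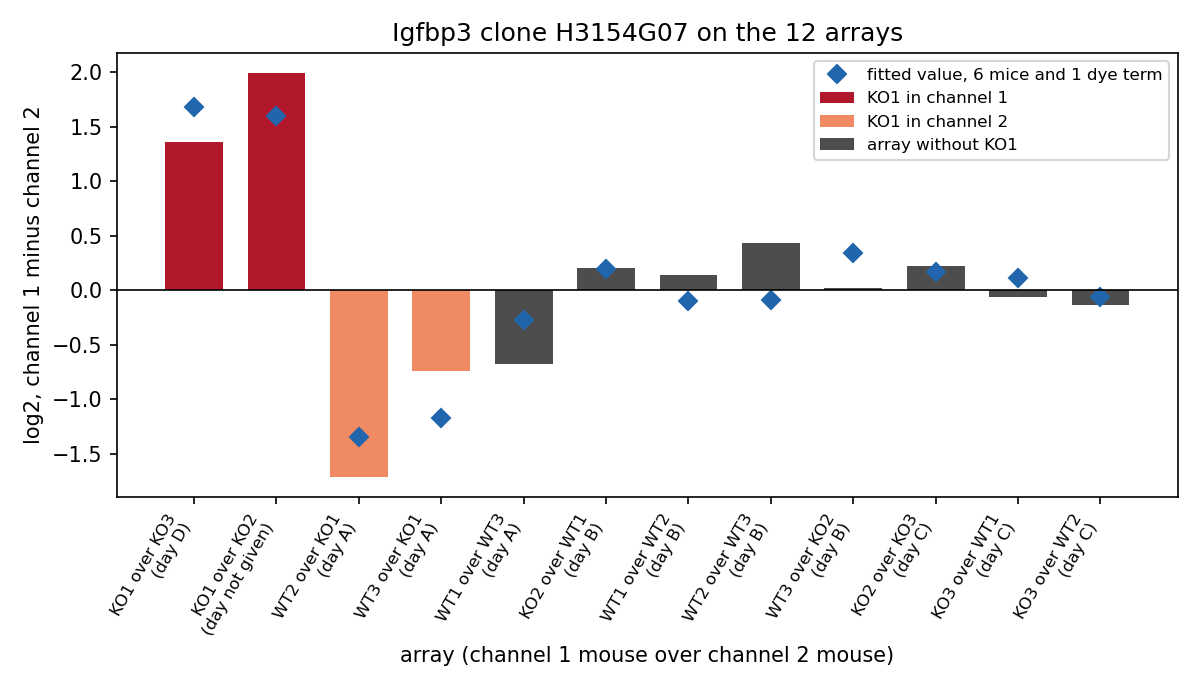
Igfbp3 (clone H3154G07) on each of the 12 arrays, as log2 of channel 1 minus channel 2 (bars), with the value fitted from 6 mouse effects and 1 dye term (diamonds). The 4 arrays with KO1 run from 0.74 to 1.99 in size, always towards KO1, and WT1 over WT3 at -0.67 is the largest of the others.

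In the fit of 6 mouse effects and a dye term to all 12 arrays, KO1 was 1.24 above the mean of the 6 mice, with a standard error of 0.18 that was the same for every mouse. Below it, WT3 was at -0.03, WT2 at -0.20, KO2 at -0.28, KO3 at -0.35 and WT1 at -0.38. The lower 5 mice mixed the genotypes. KO1 exceeded its neighbour in this order, WT3, by 1.26 (standard error 0.27). Each further step down the order was 0.03 to 0.17, below the standard error of a difference between a pair of mice, 0.27 to 0.29. These steps are a description, since the mouse effects chose the clone.

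KO1 exceeded WT1 by 1.62, KO3 by 1.59, KO2 by 1.51 and WT2 by 1.44. The other 10 pairs of mice, those without KO1, differed by 0.03 to 0.36. KO1 was 1.48 above the mean of the other 5 mice (standard error 0.21), a 2.80-fold difference where the scale is logarithmic. Leaving out any 1 array gave 1.29 to 1.70, and leaving out any 1 of the other mice gave 1.33 to 1.67. Without the widely spread array of KO1 over KO3 the difference was 1.64.

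**Figure D2:**
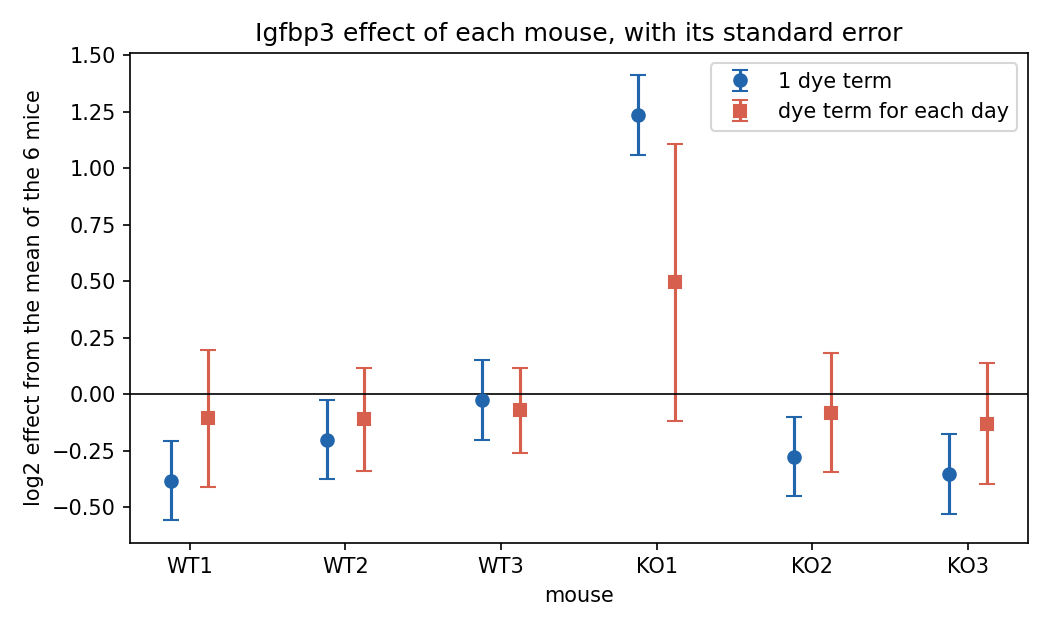
Effect of each mouse on Igfbp3 as a log2 difference from the mean of the 6 mice, with standard errors, from the fit with 1 dye term (circles) and with separate dye terms by day (squares). KO1 is at 1.24 in the first fit and at 0.50, with a standard error of 0.61, in the second, and the other 5 mice lie near or below 0 in both.

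The estimate of the KO1 difference depended on whether the dye effect could differ between days. It was 1.48 with 1 dye term for all arrays and 1.48 with no dye term. The names of the arrays in the study's experiment file carry days, called A to D here, and what was done on those days is not stated. KO1 was in channel 2 on both of its day A arrays and in channel 1 on the array of day D and on the array without a day. The array without a day was KO1 over KO2, and its name marks it as a rescan. Its slide number falls among those of the day B arrays, and a fit with it placed on day B was not made. It held the largest KO1 value, 1.99, and whether the rescan bears on that value was not tested. The array of day A that did not carry KO1 was WT1 over WT3, and it also read below 0. With a dye term for each of days A, B and C and 1 for the other pair of arrays, KO1 minus the other 5 mice was 0.60 with a standard error of 0.74, a larger error than the value. The standard error was 0.21 with a single dye term.

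In that fit the Igfbp3 dye effect was -0.64 (standard error 0.58) on day A, 0.20 on day B and 0.01 on day C. It was 1.07 (standard error 0.85) for the term shared by the day D array and the array without a day. Both arrays under that shared term had KO1 in channel 1. The effect of KO1 and a dye effect particular to those arrays were poorly separated in this loop. Giving day D and the array without a day a dye term each, an alternative chosen after the data were seen, left KO1 at 0.63 above the others (standard error 0.67). Whether the dye effect differed between days could be tested, since that test rests on the residuals and not on the mouse effects: for Igfbp3 the limma moderated F had an adjusted p of 1.00. That test called 0 of the 15600 clones, or 0%, with 1307 at an unadjusted p under 0.05. A p of this size does not show that the dye effect was the same on every day.

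The dye effect of Igfbp3 with 1 term for all arrays was 0.09 (standard error 0.12, 95% interval -0.18 to 0.36). It is balanced over mice and was not used to choose the clone. The limma moderated test gave an adjusted p of 0.684 over 15600 clones, of which 53 or 0.34% were called for a dye effect. Igfbp3 ranked 10455 by size of the dye effect, with 33.0% of clones smaller. Its residual standard deviation of 0.45 was above the median of 0.37 over clones, and 63.3% of clones had a smaller one. No Igfbp3 value passed the outlier limit of the methods: the largest residual, scaled by its own error, was 2.02, on WT2 over WT3, against a limit of 4.98.

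The average of the 3 knockout mice was 0.40 above that of the 3 wild type mice, with a standard error of 0.42 moderated by limma and 0.53 without moderation. The difference was thus smaller than its error, and the genotypes overlapped. The standard deviation was 0.90 over the knockout mice and 0.18 over the wild type mice. KO2 and KO3 together were 0.11 below the wild type mean (-0.11, standard error 0.19). This last standard error measures the spread between arrays only. Those of 0.42 and 0.53 measure the spread between mice, so the errors cannot be compared. Without KO1 and its 4 arrays the fit gave -0.074. Without KO3 it was 0.81.

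On the 6 arrays that set a knockout against a wild type mouse, the knockout mouse was higher on 3. The mean was 0.81 over the 3 arrays with the knockout mouse in channel 2, where KO1 appeared on both day A arrays, and -0.0011 over the 3 with the knockout mouse in channel 1, which held KO2 and KO3 only. Over all 15600 clones, limma on the 6 mouse effects called 0, or 0%, for the genotype difference, with 1486 at an unadjusted p under 0.05. Without moderation 0 were called and 1238 had an unadjusted p under 0.05. With 3 mice in a genotype, the number of animals limits the precision.

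**Figure D3:**
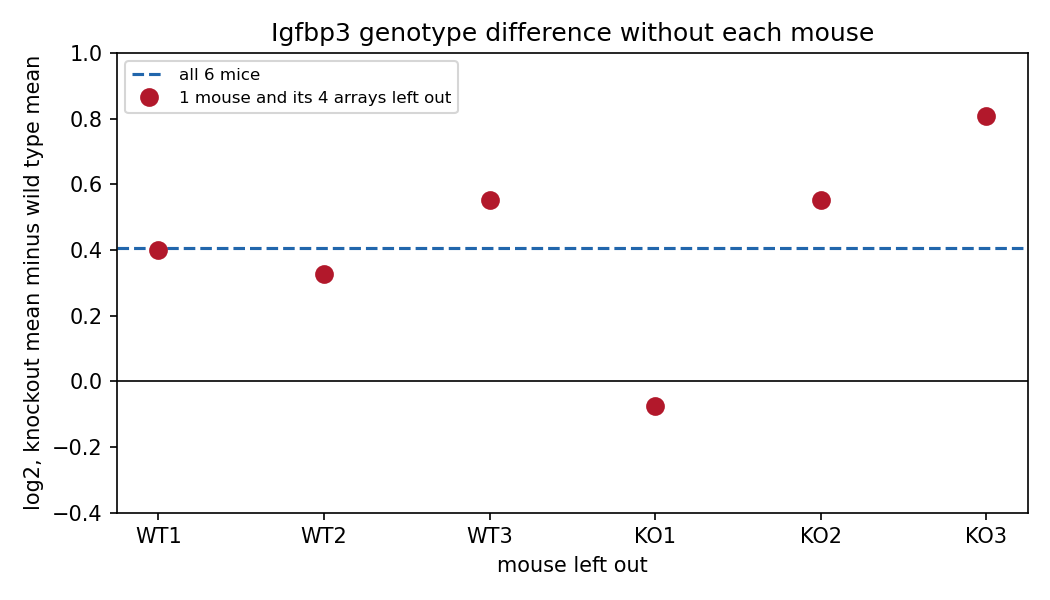
Igfbp3 genotype difference, knockout mean minus wild type mean on the log2 scale, after leaving out each mouse with its 4 arrays (points), with the value from all 6 mice (dashed line, 0.40). Leaving out KO1 gives -0.074, the only value below 0, and leaving out KO3 gives 0.81.

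Set beside the other clones, Igfbp3 ranked higher by the step of KO1 than by its range. KO1 was singled out because it was the highest mouse of this same clone, so that rank favours Igfbp3. By the gap of the highest mouse to the next and by the range, which name no mouse, it ranked 127 and 824. The ranks and shares count all clones, including dim ones that the study's own intensity filter would have set aside. Whether Igfbp3 passes that filter was not checked. By size of KO1 minus the other 5 mice it ranked 20 of 15600, with 99.9% of clones smaller. Among all clones, 17 including Igfbp3 had KO1 at least as far above the other mice, and 3 had it at least as far below. With dye terms by day it ranked 4751 by the same measure. KO1 was the highest mouse in 2066 clones, or 13.2%, and KO3 in 3843.

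The range of Igfbp3 over the 6 mice was 1.62, a 3.07-fold span where the scale is logarithmic, and it ranked 824. The median range over clones was 0.53 and 94.7% of clones had a smaller one. The clones just above and below it by range were H3123G10 and H3027E09, both at 1.62, with H3081G04 and H3053D10 next to them. By the gap of the highest mouse to the next, Igfbp3 ranked 127, and this gap made up 78.0% of its range. The limma F of the mouse term called 283 clones or 1.81% at an adjusted p under 0.05. For Igfbp3 nothing is read from this test, because the mouse effects chose it.

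The spread lay within the knockout group. The range over the knockout mice was 1.59 and ranked 367, against a median of 0.36 over clones. Over the wild type mice it was 0.36 and ranked 5580, against a median of 0.27. Over the 5 mice other than KO1 the range was 0.36, below the median of 0.48, and 35.9% of clones had a smaller one. By size of the genotype difference Igfbp3 ranked 2021, with 87.0% of clones smaller and a median size of 0.13. Its neighbours in that order, H3015G10, H3001G03, H3143D04 and H3022D10, lay at 0.40 to 0.41.

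**Figure D4:**
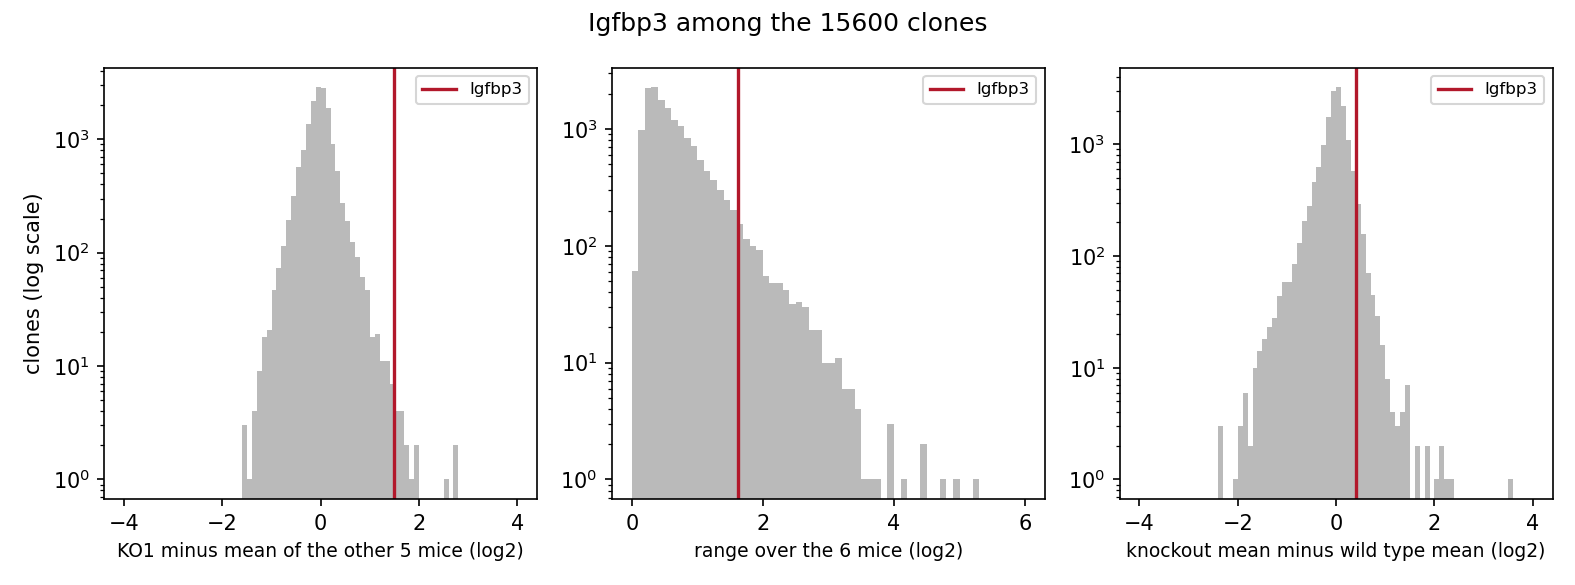
Number of clones (log scale) by KO1 minus the mean of the other 5 mice (left), by range over the 6 mice (middle) and by knockout mean minus wild type mean (right), all on the log2 scale, with Igfbp3 marked. Igfbp3 lies at 1.48 in the tail of the first, at 1.62 in the second and at 0.40 inside the body of the third.

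Clones were counted whose mouse effects correlated highly with those of Igfbp3, which need not mean the same order of the 6 mice. Among the 2939 other clones with a range of at least 1, 10 had a Pearson correlation with Igfbp3 of at least 0.9 over the 6 mice and 17 had one of -0.9 or below. All clones were measured on the same 12 arrays, and these correlations are a description. No reference share for such correlations over 6 mice was computed, so the counts are not read as few or many. The 3 most alike, H3146D02 (0.97), H3095E06 (0.96) and H3118F08 (0.96), had no gene name here. KO1 was the highest mouse in 365 of the 2939 clones and the lowest in 410.

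Gene names were held for a small share of the array: 572 clones were in the part of the layout used here, and 196 of them had a symbol matched to RefSeq. Of the named clones, 46 had a range of at least 1. Fcgrt, the neonatal Fc receptor that recycles immunoglobulin G and albumin, was most like Igfbp3, with a correlation of 0.86 and KO1 at 0.80 above the mean of its 6 mice. The next were Hnrnpc, a nuclear RNA binding protein (0.59), Atxn7l3b (0.59), the chaperone Hsp90aa1 (0.56) and Scp2-ps2, named as a pseudogene of the sterol carrier protein Scp2 (0.55). In Hnrnpc, Atxn7l3b and Hsp90aa1 KO1 stood only 0.06 to 0.18 above WT1, against 1.62 in Igfbp3. In Scp2-ps2 KO1 (0.52) was below WT2 (0.63). The named clones least like it were Ttc41 (-0.73), the clock-related protein Timeless (-0.66), Aif1l (-0.48), Retsat, a retinol saturase (-0.48), and Golt1b (-0.40).

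The pathway around Igfbp3 could not be followed on these names. Of 46 other genes of the insulin-like growth factor axis, which include the ligands, the receptors, the other binding proteins, the acid-labile subunit and the proteases that cleave binding proteins, 0 had a named clone. Of 12 genes known to follow medullary tonicity, 1 had a named clone: Hspa4l, a heat shock protein of the osmotic stress response. It was below the mean of the 6 mice in all 3 knockout mice.

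Hspa4l was at 0.91, 1.22 and 0.25 in WT1, WT2 and WT3, and at -0.57, -1.17 and -0.63 in KO1, KO2 and KO3, as differences from the mean of the 6 mice. The genotypes did not overlap for this clone, as for 15.7% of all clones. The knockout mouse was below the wild type mouse on 6 of 6 direct arrays, by -0.64 to -2.24. The genotype difference was -1.59 with a standard error of 0.28 and a limma adjusted p of 0.281, which did not pass the threshold, and the mouse term had a limma adjusted p of 0.0523. The correlation of Hspa4l with Igfbp3 over the 6 mice was -0.26.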

How the data were processed

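The 6 mice, 3 of each genotype, were compared on 12 arrays with a pair of channels and duplicate-spotted NIA Mouse 15K cDNA clones, and the labels describe the values as re-extracted from the original images. The authors subtracted the background, applied the linlog transformation, normalized the channels by lowess on intensity and location and averaged duplicate spots. The values they deposited are log2 differences, channel 1 minus channel 2, for 15600 clones, with 0 missing values. Slides were read on an arrayWoRx scanner and the images quantified in softWoRx Tracker, per the methods, and the version was not given in the sources used here. Each array was assigned to its mice by its labels, and 0 columns were left unmapped. The direction was checked against the normalized channel means in the study's own files for 1200 values, of which 1200 were equal within 0.005.

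Each clone was fitted by least squares with 5 mouse contrasts and a dye term, after the study's model. The study analysed only clones that passed an intensity filter, and no such filter was applied here. Variances were moderated with limma 3.58.1 in R 4.3.3, p-values were adjusted over all 15600 clones (Benjamini-Hochberg) and 0.05 was the threshold for a call. The genotype difference was taken with limma from the 6 effects, with mice as the replicates. P-values for the dye and for mice measure the spread between arrays, and the labels give the mice as separate animals. The fits were also run on simulated data with independent noise on each array. Apart from the changes put in, the simulated mice of a genotype did not differ, and the outcome is not given here. Figures were drawn with Python 3.11.15 and matplotlib 3.10.9.

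Clone names came from the study's layout, of which 1144 lines were used here, matched to RefSeq symbols. Named were Igfbp3, the genes of its axis and beside it, Aqp1, the 5 named clones most and the 5 least correlated with it among those with a range of at least 1, and the pair on each side of it by range and by genotype difference. The 3 most correlated clones overall and Hspa4l were named outside this rule, after their values were seen. The clone and the lists (insulin-like growth factor axis, osmotic response, cell type markers) were chosen with earlier results of these data known. Alternatives covered the dye term, centring, scale, array weights, outliers, days, dye orientation, the variance prior, the threshold, a replicate block and each array and mouse left out. Array precision is limited by the number of arrays, and a precision from depth does not apply.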

Additional observations from a re-analysis of the deposited data

How the results depend on the processing

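For Igfbp3, KO1 led the next mouse by 0.52 to 1.65 in all 28 fits with it. Some, as with outliers dropped (0 here), could not differ. Of 105 Igfbp3 values under alternatives, 98 counted as unchanged, 5 as moved and 2 as reversed. For KO1, the range and the genotype difference, unchanged means a shift below the residual standard deviation of 0.45. For the dye effect it means only that the adjusted p stayed above the threshold. The genotype difference is smaller than 0.45, so its fall to 0.19 with dye terms by day also counted as unchanged. Dye terms by day took KO1 minus the other mice from 1.48 to 0.60 and the range from 1.62 to 0.63. With the day D array and the array without a day given a term each (chosen after seeing the data) these were 0.63 and 0.75. With these terms the standard error rose, because KO1 then shares its arrays with a dye term. Leaving out arrays or mice gave 1.29 to 1.70 for KO1 minus the other mice and 0.27 (without KO1) to 1.85 for the range. The genotype difference of 0.40 ran from -0.074 (without KO1) to 0.81 (without KO3) and was -0.0011 over the 3 arrays with a knockout mouse in channel 1 against wild type. The rank by range was 824, 9259 with dye terms by day and 12614 without KO1, and the rank by genotype difference was 2021, 6869 and 11628. The dye effect of Igfbp3 had an adjusted p of 0.536 to 0.997 by limma over its alternatives.

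The replicate block of mouse numbers left the Igfbp3 genotype difference at 0.40 and called 0 clones, as without it. Over clones, deviations of same-numbered mice from their genotype means correlated at -0.08, -0.24 and -0.04. This cannot show whether the numbers pair the mice, since deviations cancel within a genotype and same-numbered mice shared no array. Over all clones the mouse term called 283. It called 163 without a dye term, 121 with arrays scaled, 1097 with array weights, 455 with outliers dropped, 2 with dye terms by day, 2 with plain variances, 8 at 0.01, and 0 to 245 with an array or mouse left out. The dye effect called 53, and 416 with array weights, 327 with outliers dropped, 9 with plain variances, 4 at 0.01, and 1 to 506 with an array or mouse left out. The genotype difference called 0 and, with arrays in place of mice as replicates, 229. The cause of these shifts was not tested. The insulin-like growth factor axis gave no value, since none of its genes had a named clone.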
